A study of Mus musculus with 6 samples.

Results

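The LIF receptor and STAT3 pathway was followed here through 7 genes given as a list of array identifiers, in the order of the signal: Lif, Lifr, Il6st, Jak1, Stat3, Socs3 and Pim1. All 7 had a row among the 17144 genes of the arrays. The rule that lists them uses no measured level, but the list was chosen with earlier results of these data known. RNA came from 3 biological replicates of wild type ESCs of the mouse line V6.5 (129SvJae/C57B6 F1), a line derived from a blastocyst, and from 3 of wild type NPCs, the neural precursor cells made from that line in culture, with 1 Affymetrix mouse expression array each. No allele, transgene or drug separated the groups, and all cells share the origin from 1 line. The ESC medium held serum and LIF, while the NPCs grew on polyornithine and laminin in N3 medium with bFGF and EGF and no LIF among its listed additions, so that cell type and medium cannot be told apart in any comparison below. The values are robust multi-array average (RMA) signals on a log2 scale, where a step of 1 is a doubling, and a bulk culture does not separate fewer expressing cells from less RNA per cell.

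LIF is a cytokine of the IL-6 family that binds a receptor made of LIFR and gp130, the product of Il6st. The receptor chains carry JAK kinases, which phosphorylate STAT3, and phosphorylated STAT3 enters the nucleus and activates its targets. Among those are Socs3, whose product blocks the receptor and the kinases in a feedback loop, and the kinase gene Pim1. In mouse ESCs this signal sustains self-renewal, and in the developing brain the same receptor complex is known for driving precursors toward astrocytes. The arrays read the RNA of these genes and not the phosphorylation that carries the signal.

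The 2 members with the largest falls, Socs3 and Pim1, and the 1 that rose, Stat3, are shown here by the promoter windows that RefSeq gives on build GRCm38.p6. Each runs 5′ to 3′ on the strand of the gene, from 250 bases before a transcription start to 50 after it. Capitals mark TTCNNNGAA, the palindromic core that STAT dimers recognize, which reads the same on both strands. The Socs3 window is chr11:117969317-117969616 on the minus strand, the Pim1 window chr17:29490535-29490834 on the plus strand and the Stat3 window chr11:100939491-100939790 on the minus strand.
Socs3: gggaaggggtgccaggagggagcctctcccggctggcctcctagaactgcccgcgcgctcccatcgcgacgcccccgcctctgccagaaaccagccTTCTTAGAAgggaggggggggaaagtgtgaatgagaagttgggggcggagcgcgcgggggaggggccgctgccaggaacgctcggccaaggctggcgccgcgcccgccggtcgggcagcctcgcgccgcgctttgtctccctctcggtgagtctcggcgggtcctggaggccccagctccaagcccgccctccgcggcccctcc
Pim1: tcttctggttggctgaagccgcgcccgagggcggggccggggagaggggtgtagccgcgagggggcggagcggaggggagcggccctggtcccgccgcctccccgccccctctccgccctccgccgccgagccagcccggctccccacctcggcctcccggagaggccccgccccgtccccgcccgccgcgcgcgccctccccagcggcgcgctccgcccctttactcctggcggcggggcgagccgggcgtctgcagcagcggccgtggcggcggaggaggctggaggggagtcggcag
Stat3: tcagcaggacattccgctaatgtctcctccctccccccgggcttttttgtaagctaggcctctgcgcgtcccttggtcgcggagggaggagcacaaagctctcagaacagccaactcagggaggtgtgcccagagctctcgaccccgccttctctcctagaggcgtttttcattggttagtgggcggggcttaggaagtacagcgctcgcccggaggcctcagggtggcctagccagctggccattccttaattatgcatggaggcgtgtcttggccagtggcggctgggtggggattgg

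The Socs3 window holds 1 match, TTCTTAGAA, which runs from 154 to 146 bases before the start used in the table (chr11:117969512-117969520). No match was found in the windows of the other 6 members, where Lifr and Pim1 have 2 windows each and the rest 1. The same letters occur in 8.30% of all 32851 promoter windows, and in some window of 9.55% of the 27025 gene symbols. Beside the share of symbols, 1 member of 7 with a match is a description of these sequences, and no test was made of it. The Socs3 and Pim1 windows shown are rich in G and C, at 73.3% and 81.3% of bases, against a median of 52.7% over all windows and 60.7% in the Stat3 window. The other Pim1 window of the table, which is not printed, holds 49.0%. The probe sets read transcripts and do not tell from which start they came.

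Of the 7 members, 3 were lower in NPCs, 1 was higher and 3 were not called. Socs3, Pim1 and Il6st fell, by 25.4-fold, 5.30-fold and 2.39-fold, and Stat3 rose 2.08-fold. A gene was called in limma at a Benjamini-Hochberg adjusted p under 0.05 over all genes together with a difference of means over 1.5-fold. By that rule 34.1% of the 17144 genes were called. Those higher in NPCs made up 15.4% of all genes and those lower 18.7%, to be set beside 1 and 3 of the 7 members. On 5 members every NPC array lay below every ESC array, as it did at 32.6% of all genes, and on Stat3 every NPC array lay above, as at 26.1% of all genes. The median difference over the members was -0.39 on the log2 scale, against -0.036 over all genes, and the median size of a difference was 1.06 against 0.33.

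**Figure D1:**
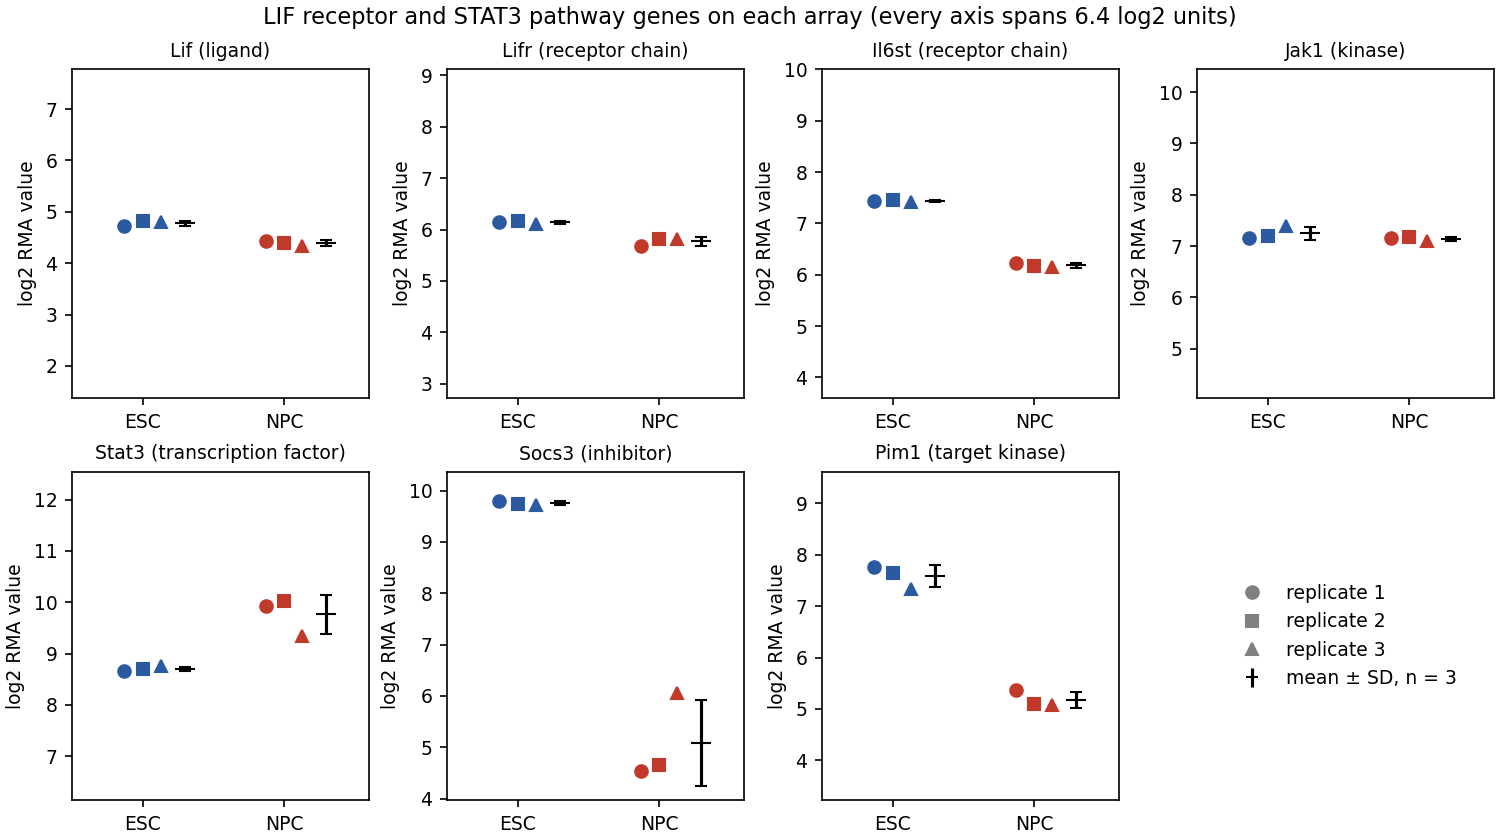
Log2 RMA value of each member on the 3 ESC arrays (blue) and the 3 NPC arrays (red), with a symbol for each replicate and the mean ± SD in black. Every panel spans the same number of log2 units, so that heights can be compared as changes: Socs3 dropped from about 9.75 to between 4.55 and 6.06, Pim1 from 7.59 to 5.18, and Jak1 stayed near 7.2.

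The 2 cell types were checked by a marker list of which few genes could be named. Pou5f1, which encodes OCT4, read 12.42 to 12.46 in ESCs and 3.61 to 3.83 in NPCs. In NPCs the named neural progenitor markers Fabp7, Nes and Vim, 3 of the 6 listed, were higher by 9.27, 2.05 and 3.29 on the log2 scale. They were named through a table of the study that ranks genes by this rise, so this is a description. No marker of feeder fibroblasts, microglia, mesoderm or endoderm could be named, so those cells were not checked. Among the arrays, NPC replicate 3 stood apart. Across genes its correlation was 0.978 to 0.979 with each of the others, where that between NPC replicates 1 and 2 was 0.997 and no pair of ESC arrays fell under 0.996. At 686 genes it lay more than 1 on the log2 scale from the mean of the other 2. Without it the differences of Lif, Lifr, Il6st, Jak1 and Pim1 were -0.36, -0.40, -1.24, -0.085 and -2.35 on the log2 scale and their calls did not change, and those of Stat3 and Socs3 are given below beside their values. As a sign of RNA quality, the 3′ minus 5′ difference of the beta-actin control probe sets was 0.36 to 0.45 in ESCs and 0.26 to 0.43 in NPCs on the log2 scale, and that of Gapdh was -0.08 to -0.05 and -0.16 to -0.10.

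Lif encodes the ligand. The LIF added to the ESC medium is a protein and adds nothing to this value, which reads transcript from all cells of the culture. No feeder fibroblast marker could be named, so a share of Lif transcript from such cells was not checked. Its log2 value was 4.72, 4.81 and 4.79 on the ESC arrays and 4.44, 4.40 and 4.34 on the NPC arrays. The groups did not overlap, with a gap of 0.28 between the lowest ESC array and the highest NPC array. The difference of -0.39 (SE 0.076, adjusted p = 0.00442, limma) is 1.31-fold, which is under the 1.5-fold threshold, so Lif was not called. The adjusted p alone passed 0.05 at 49.0% of all genes. Lif sat low on the arrays, at the 37.1 ± 0.96 percentile of genes in ESCs and 33.5 ± 0.82 in NPCs (SD, n = 3 arrays), a position that also depends on how well its probes bind. Detection calls were not analyzed here, so these values do not set whether the transcript was present at all.

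The 2 receptor chains differed in how far they fell. Lifr, the chain that gives the receptor its preference for LIF, read 6.15, 6.17 and 6.11 in ESCs and 5.67, 5.82 and 5.81 in NPCs. All NPC arrays were below all ESC arrays. As with Lif the change was small, -0.38 on the log2 scale (SE 0.079, adjusted p = 0.00598, limma) or 1.30-fold, and it was not called. Its 95% interval of -0.57 to -0.19 lies wholly inside 1.5-fold. When each array was centered on its median, the difference of Lifr became -0.22 and its adjusted p 0.0546.

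Il6st encodes gp130, the signaling chain that LIFR shares with the receptors of the other IL-6 family cytokines. Its log2 values were 7.43, 7.46 and 7.43 on the ESC arrays and 6.23, 6.17 and 6.14 on the NPC arrays. The arrays of each cell type lay within 0.1 of each other, and a gap of 1.19 separated the groups. Il6st fell by 1.26 on the log2 scale (SE 0.073, 95% interval -1.43 to -1.08, adjusted p = 9.63e-06, limma), or 2.39-fold, and 1499 of the 17144 genes fell further. The intervals of Il6st and Lifr did not overlap, and a test of the difference between these 2 changes was not run.

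Jak1, the kinase on which gp130 signaling mainly depends, gave no detectable difference. It read 7.16, 7.20 and 7.38 in ESCs and 7.15, 7.17 and 7.10 in NPCs. NPC replicate 2 lay above ESC replicate 1, which made Jak1 the only member whose groups overlapped. The difference was -0.10 (SE 0.089, adjusted p = 0.388, limma). Its 95% interval corresponds to an NPC to ESC ratio between 0.804 and 1.08, so that a change of 1.5-fold in either direction lies outside the interval. The sign of this small difference turned to 0.050 when the arrays were centered on their medians.

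**Figure D2:**
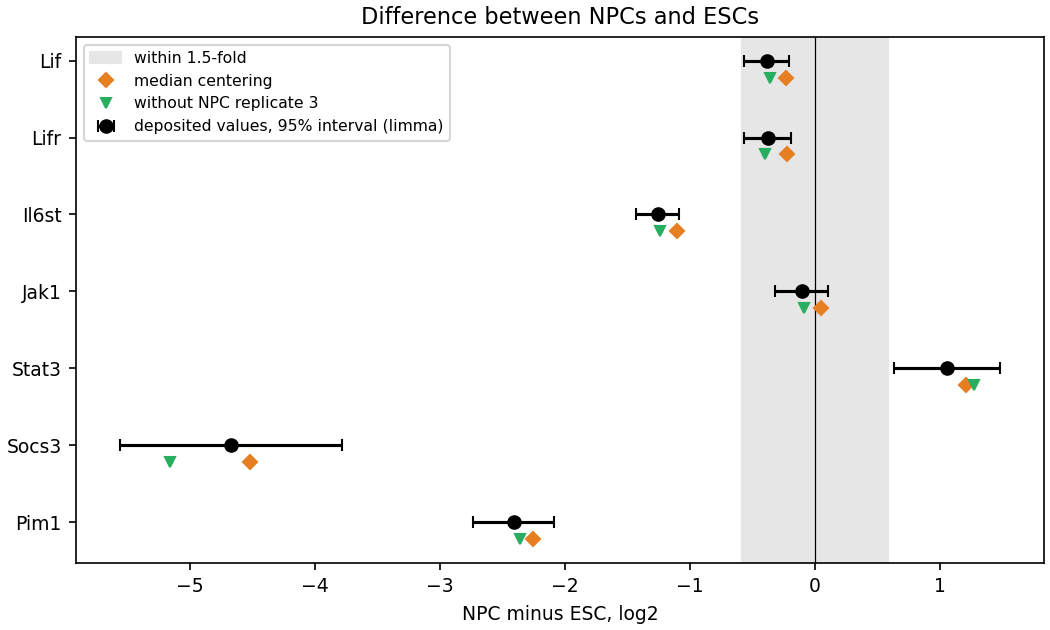
NPC minus ESC difference of each member on the log2 scale (black, with the 95% interval from limma), with the values after median centering (orange) and without NPC replicate 3 (green) just below. The grey band marks 1.5-fold. Socs3, Pim1 and Il6st lie to its left and Stat3 to its right in each version, while Lif, Lifr and Jak1 lie within it.

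Stat3, the transcription factor that the receptor activates, was the member that rose. Its log2 values were 8.67, 8.70 and 8.75 on the ESC arrays and 9.93, 10.03 and 9.34 on the NPC arrays. Every NPC array was above every ESC array, but NPC replicate 3 was only 0.63 above the ESC mean where replicates 1 and 2 were 1.22 and 1.32 above. The rise was 1.06 on the log2 scale (SE 0.18, 95% interval 0.64 to 1.48, adjusted p = 0.00206, limma), and 1.27 without NPC replicate 3 (adjusted p = 3.07e-06). With the variance of each cell type taken alone and no moderation, the adjusted p was 0.0905 and Stat3 was no longer called. By position among the genes of an array it moved from the 86.2 ± 0.63 to the 93.9 ± 1.90 percentile (SD, n = 3 arrays). A larger rise was measured at 1538 genes.

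Socs3 changed most. Its product is a feedback inhibitor of the LIF receptor complex and its gene a known direct STAT3 target. The Socs3 promoter window is the one above with a STAT core, and a link of that core to the change was not tested. The log2 values of Socs3 were 9.80, 9.73 and 9.72 on the ESC arrays and 4.55, 4.65 and 6.06 on the NPC arrays. The ESC arrays were within 0.1 of each other, and a gap of 3.67 lay between the groups. Socs3 fell by 4.67 on the log2 scale (SE 0.38, 95% interval -5.56 to -3.78, adjusted p = 4.83e-05, limma), and only 113 of the 17144 genes fell further. It went from the 93.8 ± 0.21 percentile of an ESC array to the 43.0 ± 10.9 percentile of an NPC array (SD, n = 3 arrays). The wide spread in NPCs came from replicate 3, which differed from the ESC mean by -3.69 where replicates 1 and 2 differed by -5.20 and -5.10. Without that array Socs3 fell by 5.15 (adjusted p = 3.15e-09, limma). On all 6 arrays, with each cell type's variance taken alone and no moderation, the adjusted p was 0.0378 and Socs3 was still called.

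Pim1 encodes a serine/threonine kinase that promotes survival and growth and is another known STAT3 target. It read 7.77, 7.65 and 7.34 in ESCs and 5.36, 5.10 and 5.08 in NPCs. The groups were 1.98 apart at their nearest arrays, and NPC replicate 3 did not stand out here. Pim1 fell by 2.41 on the log2 scale (SE 0.14, 95% interval -2.73 to -2.08, adjusted p = 8.85e-06, limma), and 560 genes fell further. Its percentile went from 73.7 ± 2.42 in ESCs to 44.8 ± 1.88 in NPCs (SD, n = 3 arrays).

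**Figure D3:**
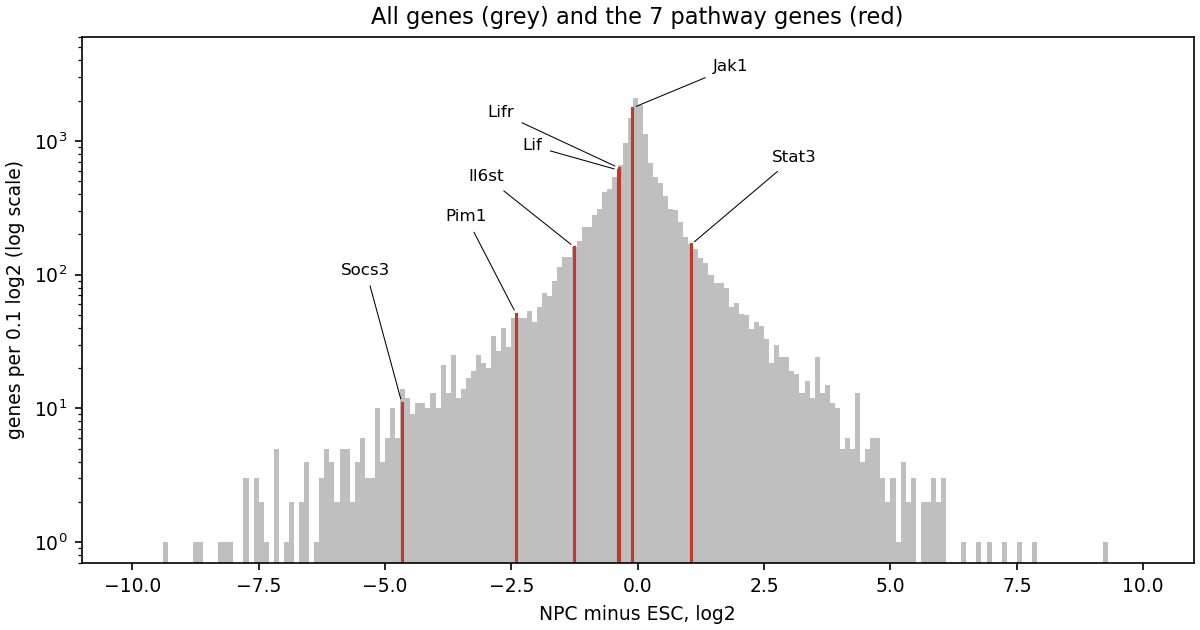
Distribution of the NPC minus ESC difference over all 17144 genes (grey, number of genes per 0.1 log2 on a log axis), with the 7 members in red. Socs3 lies in the left tail, with 113 genes below it, while Lif, Lifr and Jak1 lie in the central peak.

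Stat3 and Socs3 moved in opposite directions on the same arrays. Taken within each array, where a shift of the whole array cancels, Socs3 minus Stat3 was 1.13, 1.03 and 0.97 on the log2 scale in ESCs and -5.38, -5.38 and -3.28 in NPCs. The mean fell by 5.73 between the cell types, and the difference was -6.43 without NPC replicate 3. An exact permutation test over the 6 arrays, two-sided, gave p = 0.1, which is the smallest that 3 arrays against 3 allow. Values of different probe sets differ in binding, so only the change of this quantity between arrays can be read and not its sign.

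**Figure D4:**
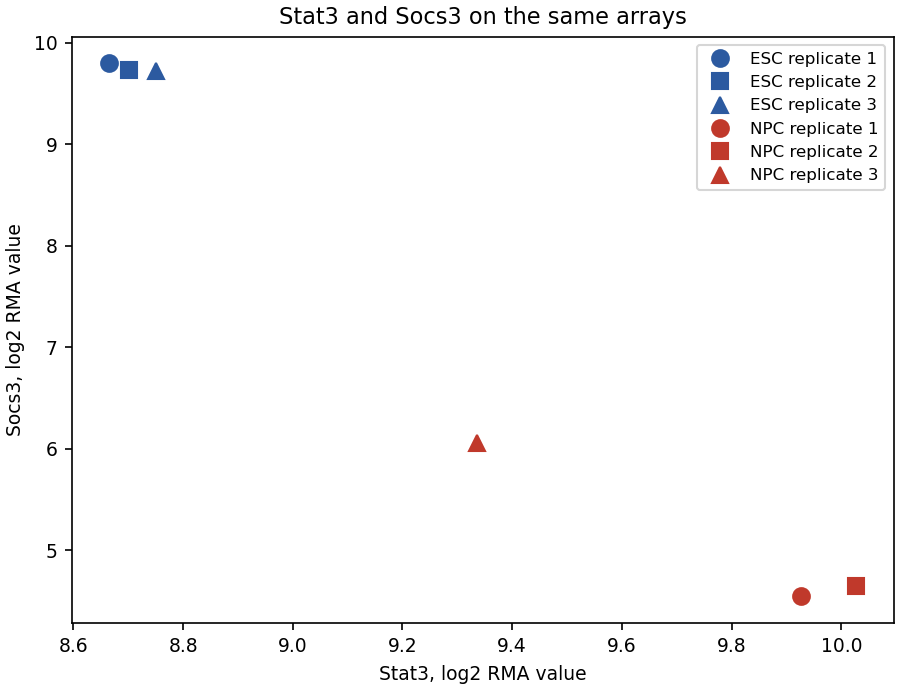
Log2 RMA value of Socs3 against that of Stat3 on each array (ESC blue, NPC red, a symbol per replicate). The 3 ESC arrays lie together at upper left, NPC replicates 1 and 2 together at lower right, and NPC replicate 3 lies between them with Stat3 at 9.34 and Socs3 at 6.06.

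NPC replicate 3 was nearer to the ESCs than the other NPC arrays were on both of these genes, and on neither receptor chain, nor on Lif, Jak1 or Pim1, was it more than 0.16 from their mean. Its distance from the mean of NPC replicates 1 and 2 was 1.46 at Socs3 and -0.64 at Stat3, and 1.66% and 9.72% of all genes were at least that far. Some named cell type markers also differed on that array, the progenitor marker Fabp7 among them. Fabp7 read 13.53 on NPC replicate 3 against 12.87 and 12.76 on the other NPC arrays, and 7.77% of all genes were at least that far from their mean. The progenitor markers Nes and Vim did not stand out, as 77.2% and 48.4% of all genes were at least as far. All the astrocyte, neuron and oligodendrocyte markers given were called higher in NPCs, and few genes that fell could be named. Their height over ESCs is therefore a description, and the unnamed genes of these lists were not checked. The astrocyte markers S100b and Slc1a3, 2 of the 6 listed, had a mean log2 value of 8.41 there against 7.43 to 7.49 on the other NPC arrays and 4.62 to 4.79 in ESCs. The neuron markers Dcx and Syt1, 2 of the 6 listed, had a mean of 4.33 against 5.90 to 6.04 and 3.51 to 3.68. Of the 6 oligodendrocyte markers listed 2 were named. Olig2 read 11.67 on NPC replicate 3 against 11.07 and 10.96 on the other NPC arrays, and 9.31% of all genes were at least that far from their mean. Cnp read 7.06 against 7.13 and 7.29, and 56.3% of all genes were at least as far, so it did not stand out. Pou5f1 read 3.61 on NPC replicate 3, the lowest of the NPC arrays. The part of these differences in the values of Socs3 and Stat3 was not tested.

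Besides the 7 members, a list of 53 genes of the IL-6 family pathway was drawn up, from ligands to targets, and 4 more of them could be named on the arrays. All 4 were named through a table of the study sorted by the rise in NPCs, so that their direction follows from how they were named and their values are given as a description, with no test. Jak2, another kinase of the receptor, read 6.01, 6.19 and 5.998 on the ESC arrays and 7.90, 7.93 and 7.81 on the NPC arrays. Its difference was 1.82 on the log2 scale (SE 0.088). Socs5, an inhibitor of the same family as Socs3, read 6.90, 6.92 and 6.85 in ESCs against 8.29, 8.16 and 8.24 in NPCs, a difference of 1.34. Ptpn1, a phosphatase that acts on JAK2, differed by 0.98. Myc, a growth regulator that STAT3 activates in ESCs, read 6.06, 6.22 and 6.30 in ESCs and 10.08, 10.13 and 10.16 in NPCs. Its difference was 3.93 (SE 0.090). The other 42 genes of the list were not analyzed here.

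The genes closest to Stat3 in pattern were sought by the root mean square distance over the 6 arrays, after each gene's own mean was subtracted. Mtch1, Zfp580 and Magi3 were nearest, at distances of 0.033, 0.059 and 0.059 on the log2 scale. They were the nearest of all genes and not only of the 2009 other named ones. Mtch1 read 8.71, 8.77 and 8.76 in ESCs and 10.01, 10.05 and 9.44 in NPCs, with the same lower value in replicate 3. For Socs3 the nearest named gene was Pim1, at 1.26, then Rfx2 at 1.37 and Il6st at 1.78. Few genes that fell have names here, and 562 of all genes were nearer to Socs3 than Pim1 was. The nearest of all was ENSMUSG00000031297, at a distance of 0.15. It read 10.16, 10.18 and 10.22 in ESCs and 4.89, 4.68 and 6.47 in NPCs, so that it too was higher in replicate 3 than in the other NPC arrays. With 6 arrays in 2 groups such distances mostly reflect the difference between the cell types and the place of that 1 array.

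In array identifiers the members are ENSMUSG00000034394_at (Lif), ENSMUSG00000054263_at (Lifr), ENSMUSG00000021756_at (Il6st), ENSMUSG00000028530_at (Jak1), ENSMUSG00000004040_at (Stat3), ENSMUSG00000053113_at (Socs3) and ENSMUSG00000024014_at (Pim1). The deposited scale placed the median of the arrays between 5.59 and 5.61 in NPCs and between 5.75 and 5.76 in ESCs. Centering on the median moved the middle of all differences from -0.036 to 0.12, and of the genes called the share higher in NPCs went from 45.1% to 55.6%. Under that scaling Socs3, Pim1 and Il6st were still lower in NPCs, by -4.51, -2.25 and -1.10 on the log2 scale, and Stat3 higher by 1.21, and all 4 were called.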

How the data were processed

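RNA of 3 ESC and 3 NPC samples, labeled as biological replicates, was hybridized to Affymetrix mouse expression arrays, read with GeneChip Operating Software, and the authors deposited log2 values made by RMA with an updated probe annotation (BrainCDF), 1 value per Ensembl gene. The annotation version and genome build: not given in the sources used here. Groups and replicate numbers came from the sample labels. Of 17208 rows, 64 control probe sets were left out, and no filter or floor was applied. Differences were fitted with limma 3.58.1 in R 4.3.3 (lmFit, eBayes, 6 arrays, no covariates) and adjusted by Benjamini-Hochberg over 17144 genes. The fit was tested on simulated data. Following the methods, the threshold was an adjusted p under 0.05 and over 1.5-fold. The moderated Welch test of the methods was rebuilt here with limma variances moderated within each cell type, and run as an alternative. It may differ from the authors' own version. Arrays hold no counts, and the number of arrays and the spread between them limit the precision.

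The names of the members were given with their identifiers. Other rows were named where all 6 values matched a printed row of the study's tables within 1e-04, which named 2010 genes with the members included and matched Stat3 to its own row. The Ensembl identifiers could not be matched to the RefSeq gene table used here, which lists none. A percentile is the share of an array's genes with a value no higher than the one given. Promoter windows (RefSeq, GRCm38.p6) were searched with Python 3.11.15 and pandas 2.3.3, and figures drawn with matplotlib 3.10.9.

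Named genes were the members, the nameable genes of the pathway list and the 3 named genes nearest to Stat3 and to Socs3. The members and lists were chosen with earlier results of these data known. ENSMUSG00000031297 was singled out after its values were seen. Alternatives were 2 Welch tests, limma with a trend, with robust variances and with a replicate block, quantile normalization, median centering, filters on the mean value at the median or the 25th percentile, other fold thresholds, and each array left out.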

Additional observations from a re-analysis of the deposited data

How the results depend on the processing

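The differences of the 7 members were recomputed in 118 combinations of gene and setting, and 114 kept both their direction and their side of the threshold. The exceptions were Stat3 under the Welch test with no moderation (difference 1.06, adjusted p = 0.0905), which left 0 members called higher, Jak1, whose sign turned to 0.050 with median centering, and Lif (-0.39) and Lifr (-0.38), which pass when no fold threshold is set, so that 5 members are called lower. The filter at the median left Lif out. Settings that change only the test, the filter or the fold threshold leave the difference itself as it was, so its direction could not turn there. Nor could Lif, Lifr or Jak1 be called in those settings while a threshold of 1.5-fold or more was kept. The number that stayed the same is therefore partly fixed in advance. Only the other scalings and the arrays left out could move a difference. Leaving out 1 array at a time, the difference of Lif was -0.41 to -0.36, of Lifr -0.40 to -0.33, of Il6st -1.28 to -1.24, of Jak1 -0.15 to -0.036, of Stat3 0.93 to 1.27, of Socs3 -5.15 to -4.40 and of Pim1 -2.53 to -2.31, and the 4 members were called each time. Socs3 minus Stat3 within arrays differed by -6.43 to -5.37, with p = 0.1 in the exact permutation test each time. Over all genes 5851 were called, 2638 higher and 3213 lower, and with a fold over 2 it was 3592, with 1615 higher and 1977 lower. Between 5637 and 6199 were called with 1 array left out.

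No pairing of the arrays by replicate number was seen, as the deviations of same-numbered arrays correlated across genes at 0.026, 0.011 and -0.0064. With 3 arrays per cell type these correlations are not independent, so they do not show that a weak pairing was absent. Adding that number to the fit as a replicate block gave 5867 calls over all genes, and the same 4 members. The 3 arrays per cell type limit every value, and no detection calls were used.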
